A study of Mus musculus with 6 samples.

Results

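The genes Sox9, Spp1, Epcam, Krt7, Krt19, Krt8, Krt18, Cd24a and Pkhd1, used as markers of bile duct cells and of hepatocyte dedifferentiation were followed in primary mouse hepatocytes exposed to tumour necrosis factor (TNF). They were chosen by symbol, with no threshold on measured values, but with earlier results of these data known. All 9 were found among the 19764 genes of the deposited table, and 7 of them were among the 12293 genes with enough reads to be tested. Krt7 and Krt19 were not.

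The cells came from Bl6/N mice and were held before treatment for 16 h in starvation medium with 5 mM glucose. The 3 TNF libraries were made from cells given 1 ng/ml TNF for 8 h, and the 3 Control libraries from cells given vehicle. Both groups also received 1 µM corticosterone, which activates the glucocorticoid receptor, and 10 µM WY-14643, which activates PPARα, so TNF was measured on top of both ligands. No allele was named for either group, and nothing in the labels says whether same-group libraries came from separate animals or cultures, so p-values measure only the spread between these libraries, which may be technical.

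In the liver, Sox9 is a transcription factor of the bile duct lineage that hepatocytes can switch on after injury. Keratins are intermediate filament proteins that assemble as pairs of a type I and a type II chain; hepatocytes normally make only the pair Krt8 and Krt18, whereas bile duct cells add Krt7 and Krt19. Epcam and Cd24a are surface glycoproteins of duct and progenitor cells, Spp1 encodes the secreted matrix protein osteopontin, and Pkhd1 encodes fibrocystin, a protein of the primary cilium whose loss causes cystic bile ducts.

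Levels are given as CPM, a gene's reads relative to the library's scaled total as set by the authors, and changes as log2(CPM + 1) in TNF minus Control, which understates the change of low genes. Libraries held 17612060 to 25114289 reads over genes. A gene is said to have risen or fallen where its adjusted p was under 0.05 in limma with the replicate number as a block, because libraries with the same number deviated together. In limma without that block none of the 7 tested genes passed, 2 of them (Sox9 and Pkhd1) had an unadjusted p under 0.05, and limma-voom without the block called 0. The block called 1 gene higher and 3 lower among the 7, against a background of 9.4% of all tested genes higher and 11.2% lower, or 20.6% in all. Without the block the background was 0.431% of all tested genes, 0.358% higher and 0.0732% lower.

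Sox9 rose, while Krt8, Krt18 and Pkhd1 fell by small amounts. Spp1, Epcam and Cd24a did not pass the test, and the duct keratins Krt7 and Krt19 were at or near the limit of detection in both groups. The median change of the 7 tested genes was -0.19, against -0.01 over all tested genes.

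**Figure D1:**
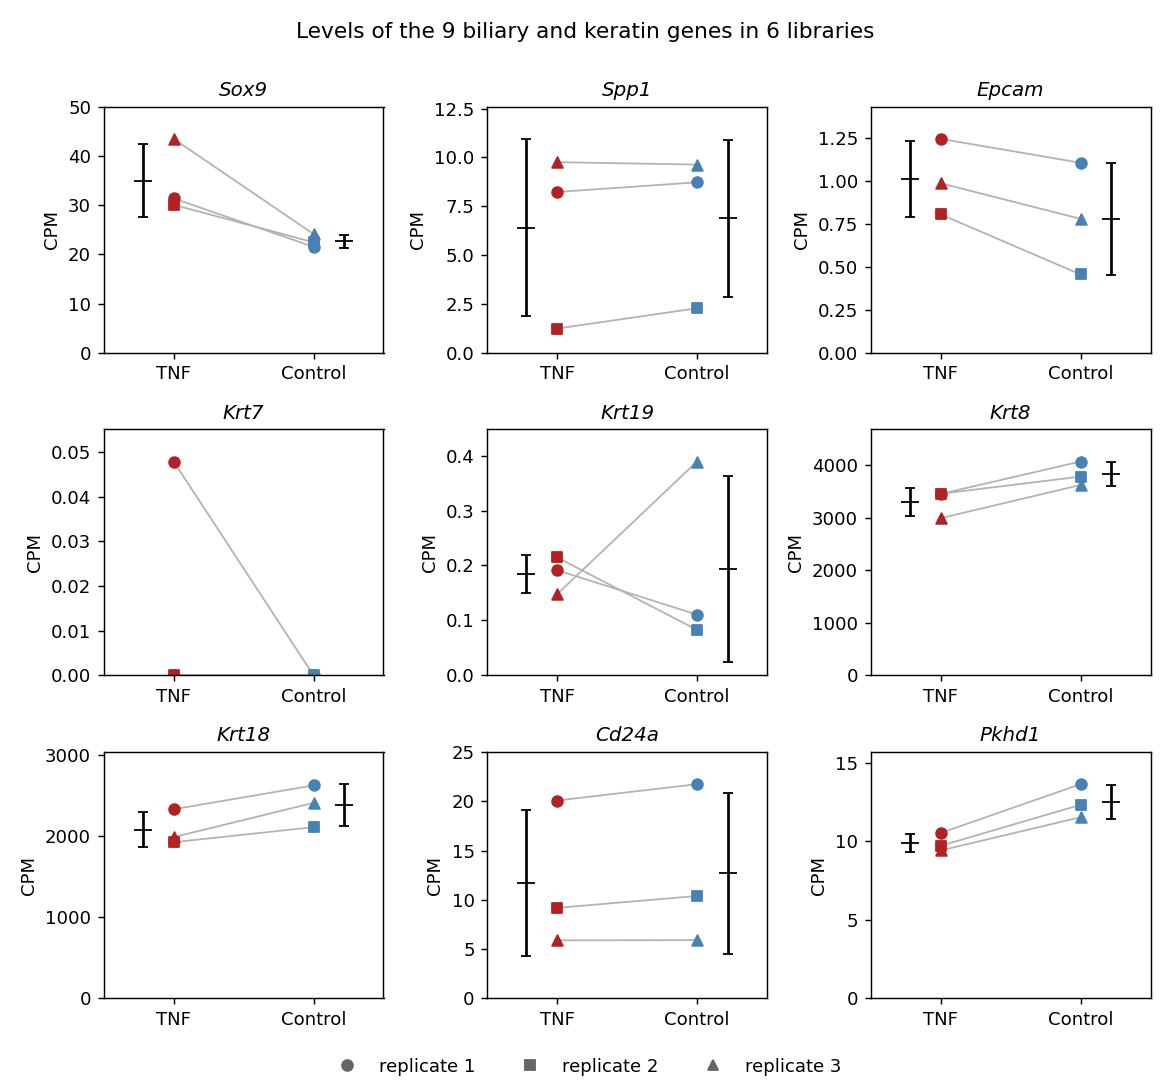
Each panel plots the CPM of 1 gene (y axis, linear from 0) in the 3 TNF libraries (left, red) and the 3 Control libraries (right, blue); marker shapes give the replicate number, grey lines join equal numbers, and black bars are mean ± SD of 3 libraries (not drawn for Krt7, which had 1 read). Sox9 lies above Control in every TNF library, Krt8 and Pkhd1 lie below, and Spp1 and Cd24a differ far more between replicate numbers than between groups.

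Krt8 encodes the type II keratin and Krt18 the type I keratin of the hepatocyte filament. The genes lie on chromosome 15 of mm10, at chr15:101996711-102004342 on the minus strand (Krt8) and chr15:102028216-102032026 on the plus strand (Krt18), and their annotated starts face away from each other across 23874 bases. The 250 bases upstream of each start are shown, as given by RefSeq for GRCm38.p6, with matched motif letters in capitals.
Krt8, chr15:102004343-102004592, minus strand: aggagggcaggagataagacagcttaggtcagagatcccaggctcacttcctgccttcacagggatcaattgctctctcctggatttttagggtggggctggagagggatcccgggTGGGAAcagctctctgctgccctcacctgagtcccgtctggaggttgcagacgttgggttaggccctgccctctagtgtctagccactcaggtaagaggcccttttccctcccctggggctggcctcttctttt
Krt18, chr15:102027966-102028215, plus strand: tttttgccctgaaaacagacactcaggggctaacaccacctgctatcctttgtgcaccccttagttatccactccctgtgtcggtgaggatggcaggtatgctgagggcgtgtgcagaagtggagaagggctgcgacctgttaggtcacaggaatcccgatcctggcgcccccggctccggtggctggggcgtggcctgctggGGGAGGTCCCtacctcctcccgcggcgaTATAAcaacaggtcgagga

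The capitals mark TGGGAA, the core letters bound by the Notch effector RBPJ, in Krt8, and the NF-κB consensus and the TATA box letters TATAA in Krt18. The NF-κB match began 47 bases and the TATA match 19 bases before the Krt18 start, and the RBPJ match began 134 bases before the Krt8 start; none overlapped another. Both strands were searched except for TATAA, which was read on the gene's strand. Of 32536 distinct upstream windows of this length in the RefSeq table, 7.28% held the NF-κB consensus, 21.6% held the RBPJ letters and 15.9% the TATA letters. The windows of the 6 genes found in that table held no match to the AP-1 letters TGANTCA, which occurred in 6.73% of all windows. They also held none to the TEAD letters GGAATG (12.6% of all windows) or to the glucocorticoid receptor half-site AGAACA (16.0%). No motif was matched in both the Krt8 and the Krt18 window. Whether any of these letters bears on the fall of the pair was not tested.

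Krt8 was at 3457, 3460 and 2995 CPM in TNF 1, 2 and 3, against 4076, 3789 and 3628 CPM in Control 1, 2 and 3. Every TNF library lay below every Control library, a pattern of 6.66% of all tested genes. Krt8 fell by 0.21 on the log2 scale (SE 0.044, adjusted p 0.00278, limma with the block); without the block the SE was 0.16 and the adjusted p 0.891. The call was just lost when all genes with a read were tested (adjusted p 0.0501, limma).

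Krt18 was at 2326, 1921 and 1983 CPM in TNF 1, 2 and 3, against 2621, 2106 and 2406 CPM in Control 1, 2 and 3. The groups overlapped, since TNF 1 lay above Control 2, but TNF was lower in each of the 3 same-numbered pairs, by 11.2%, 8.8% and 17.6% of the Control level. Of all tested genes, 27.7% were lower in all 3 pairs. Krt18 fell by 0.19 on the log2 scale (SE 0.040, adjusted p 0.00292, limma with the block; 0.901 without it).

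The ratio of Krt8 to Krt18 CPM was 1.49, 1.80 and 1.51 in TNF 1, 2 and 3, against 1.56, 1.80 and 1.51 in Control 1, 2 and 3. It followed the replicate number, with replicate 2 highest in both groups, and averaged 1.60 ± 0.18 with TNF and 1.62 ± 0.16 in Control (SD, n = 3 each; exact two-sided permutation test without pairing, p = 0.8; the smallest p this design allows is 0.1, so it could not pass 0.05). Per kb of counted sequence, Krt18 had the higher value of the pair in every library. It was at 545 ± 57.4 CPM per kb with TNF and 624 ± 67.9 in Control (SD, n = 3 each). Krt8 was at 433 ± 35.1 CPM per kb with TNF and 502 ± 29.7 in Control (SD, n = 3 each). Counted sequence included introns, and exons made up 23.7% of the Krt8 span and 36.7% of the Krt18 span. The per-kb order therefore does not show which of the pair had more RNA. Krt8 ranked between 12 and 19 among all genes by CPM and Krt18 between 19 and 35, and together they supplied 99.4% to 99.8% of the reads on the 48 keratin genes of the table. GENCODE vM21 lists a processed pseudogene of Krt8 (Krt8-ps), so some reads may be shared.

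**Figure D2:**
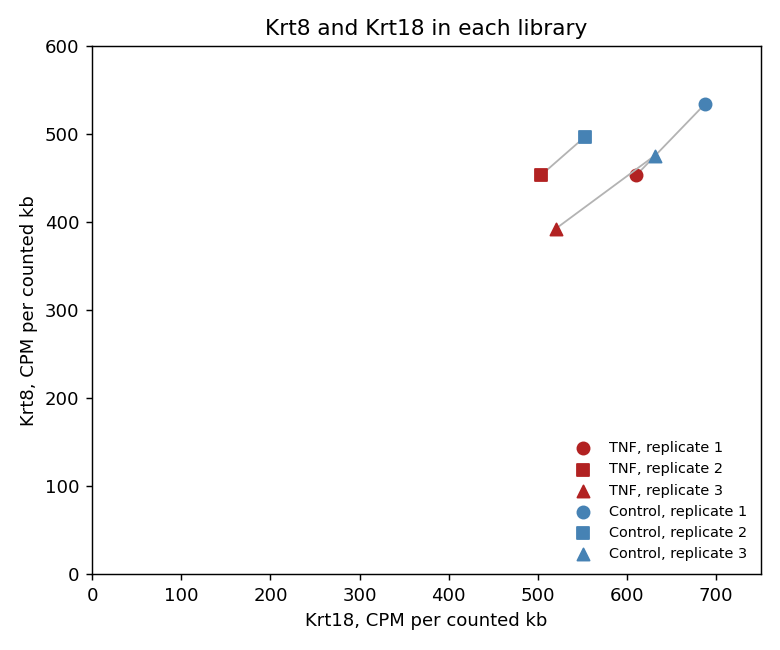
Krt8 (y axis) is plotted against Krt18 (x axis), both in CPM per counted kb on linear axes from 0, with 1 point per library (red TNF, blue Control), shapes for the replicate number and grey lines joining equal numbers. On all 3 lines the TNF point lies lower and to the left; Krt8 was between 392 and 453 CPM per kb in TNF libraries and between 475 and 534 in Control libraries.

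The duct keratins stayed close to 0. Krt7, the type II keratin of duct cells (chr15:101412403-101427806, plus strand), had 1 read over all 6 libraries, in TNF 1. Krt19, its type I partner (chr11:100140811-100145919, minus strand), had 4, 4 and 3 reads in TNF 1, 2 and 3, against 2, 2 and 8 reads in Control 1, 2 and 3. A library without a read of Krt7 still allows up to 3 reads of it, or 0.124 to 0.166 CPM, a limit that covers counting error only. Krt19 had 23 reads in all, its groups overlapped, and neither gene was tested.

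Sox9 was the one gene of the 9 called higher (chr11:112782210-112787757, plus strand). It was at 31.4, 30.1 and 43.5 CPM in TNF 1, 2 and 3, against 21.5, 22.5 and 24.1 CPM in Control 1, 2 and 3. All TNF libraries lay above all Control libraries, as in 6.59% of tested genes, with TNF 3 farthest from the rest. The 3 pairs gave increases of 45.7%, 34.0% and 80.3%. Sox9 rose by 0.58 (SE 0.076, adjusted p 6.87e-05, limma with the block) and had a log2 change of 0.46 without replicate 3. The adjusted p there was 0.000103 (limma with the block). With a pair left out, such p-values rest mostly on the variance shared across genes and hardly on the spread of the Sox9 pairs. Without the block the SE was 0.15 and the adjusted p 0.211. The SD of the log2 change over the 3 pairs was 0.22.

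Spp1, the osteopontin gene (chr5:104435111-104441053, plus strand), was at 8.23, 1.23 and 9.76 CPM in TNF 1, 2 and 3, against 8.73, 2.28 and 9.64 CPM in Control 1, 2 and 3. Replicate 2 was low in both groups, with 23 reads in TNF 2 and 55 in Control 2, and the 2 other numbers were alike. Spp1 differed by -0.20 (95% interval -0.47 to 0.07, adjusted p 0.298, limma with the block), most of it from replicate 2. Leaving that number out left a log2 difference of -0.030 (adjusted p 0.914, limma).

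Epcam, an adhesion glycoprotein of duct and progenitor cells (chr17:87635979-87651127, plus strand), had 108 reads in all. It was at 1.24, 0.805 and 0.986 CPM in TNF 1, 2 and 3, against 1.10, 0.455 and 0.779 CPM in Control 1, 2 and 3. TNF was higher in each of the 3 pairs, as in 23.4% of all tested genes, but the groups overlapped. The change of 0.19 did not pass (95% interval -0.11 to 0.49, adjusted p 0.395, limma with the block).

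Cd24a, a small glycolipid-anchored surface protein (chr10:43579169-43584265, plus strand), was at 20.1, 9.17 and 5.87 CPM in TNF 1, 2 and 3, against 21.8, 10.4 and 5.89 CPM in Control 1, 2 and 3. Its level followed the replicate number almost exactly and was 3.71 times as high in the highest as in the lowest library. The difference with TNF was -0.09 (95% interval -0.29 to 0.10, adjusted p 0.533, limma with the block), with TNF lower in each of the 3 pairs, as in 27.7% of all tested genes.

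Pkhd1 (chr1:20057779-20618057, minus strand) was at 10.5, 9.71 and 9.41 CPM in TNF 1, 2 and 3, against 13.6, 12.3 and 11.5 CPM in Control 1, 2 and 3. Every TNF library was below every Control library, a pattern of 6.66% of all tested genes. The 3 pairs were alike, with Pkhd1 lower by 0.35, 0.32 and 0.27 on the log2 scale in pairs 1, 2 and 3. Pkhd1 fell by 0.31 (SE 0.088, adjusted p 0.0216, limma with the block; 0.470 without it). The call did not hold without replicate 1 (adjusted p 0.0896, limma), without replicate 2 (0.0877) or when all genes with a read were tested. The gene spans 560279 bases, of which 35847 were not counted. RefSeq places the long non-coding gene 4930486I03Rik inside Pkhd1 with the same length, 35847 bases. Exons annotated in GENCODE vM21 make up 2.55% of the Pkhd1 span, and exonic and intronic reads were not separate in the values.

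**Figure D3:**
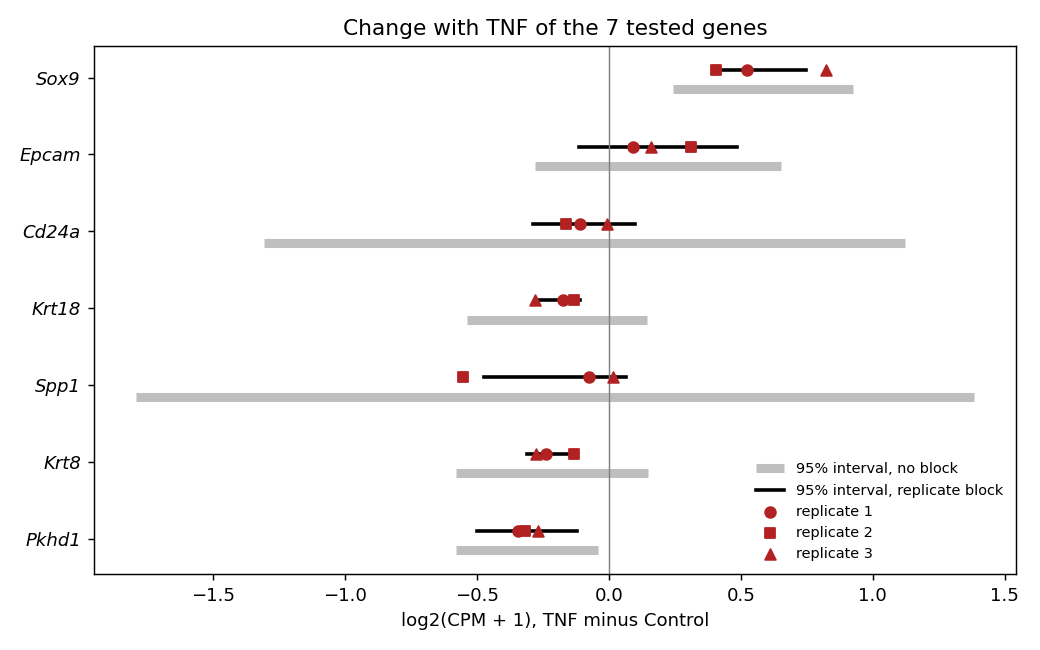
For the 7 tested genes (rows), red symbols give the difference in log2(CPM + 1), TNF minus Control, of each same-numbered pair (x axis), black lines the 95% interval of the limma fit with the replicate block, and grey bars the interval without it. The black lines of Sox9, Krt18, Krt8 and Pkhd1 do not reach 0, while the grey bars of Spp1 and Cd24a are the widest, from -1.79 to 1.38 and from -1.31 to 1.12.

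The replicate number accounted for very different shares of each gene's spread. Of the sum of squares of log2(CPM + 1) over the 6 libraries, the replicate number held 99.3% for Cd24a, 96.9% for Spp1 and 73.3% for Epcam, against a median of 69.6% over all tested genes. It held 58.7% for Krt18, 33.3% for Krt8, 19.7% for Pkhd1 and 18.5% for Sox9. TNF against Control held 79.5% for Pkhd1, 74.7% for Sox9, 61.7% for Krt8 and 37.5% for Krt18, with a median of 12.5% over all tested genes. These shares describe these 6 libraries and carry no test.

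**Figure D4:**
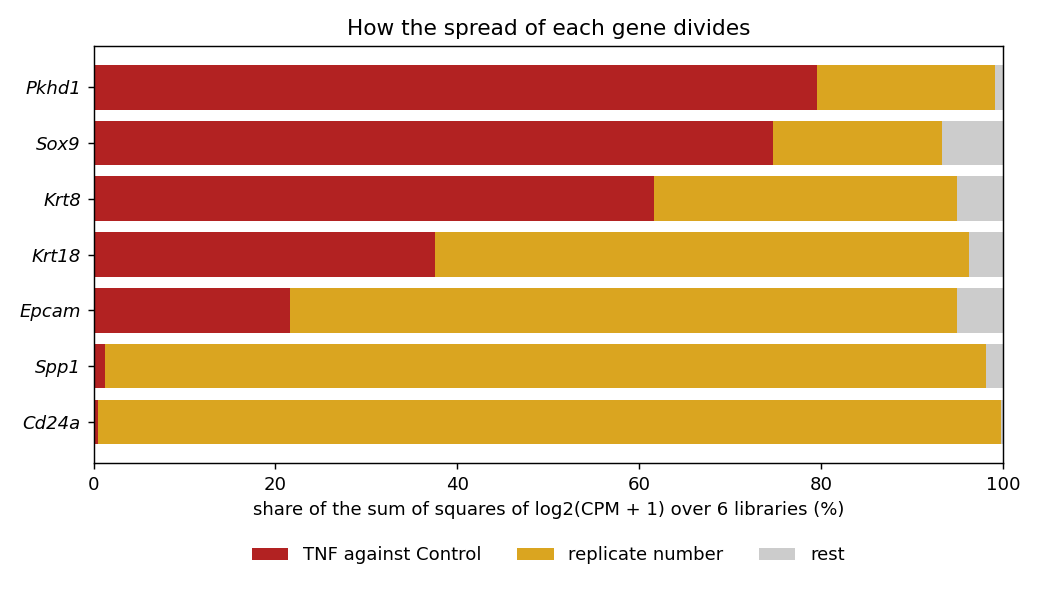
Stacked bars show, for each of the 7 tested genes, the percentage of the sum of squares of log2(CPM + 1) over 6 libraries that lay between TNF and Control (red), between replicate numbers (yellow) and in the rest (grey). Pkhd1 and Sox9 are mostly red at 79.5% and 74.7%, and Cd24a and Spp1 almost wholly yellow at 99.3% and 96.9%.

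In order of level per counted kb, the mean over 6 libraries was 584 CPM per kb for Krt18, 467 for Krt8, 5.20 for Sox9, 2.39 for Cd24a, 1.12 for Spp1, 0.059 for Epcam, 0.037 for Krt19, 0.021 for Pkhd1 and 0.00052 for Krt7. The ranges of neighbours in this order overlapped between Krt18 and Krt8, Sox9 and Cd24a, Cd24a and Spp1, Epcam and Krt19, and Krt19 and Pkhd1; Krt8 and Sox9, Spp1 and Epcam, and Pkhd1 and Krt7 were apart. Introns were counted too, and exons made up between 2.55% of the span (Pkhd1) and 74.5% (Sox9), so genes with long introns come out low on this scale.

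The pattern of each gene over the 6 libraries was compared with all tested genes by Pearson's r of log2(CPM + 1); libraries of 1 replicate number share most of their deviations, so high values are frequent. Sox9 was most like Pgs1 and Zeb1 (r = 0.998 and 0.993), Krt8 most like B4gat1 and Qprt (0.991 both), Krt18 most like Lrrc46 and E2f2 (0.995 and 0.994) and Pkhd1 most like Hnf4a and Cit (0.997 and 0.996). Spp1 was closest to Zfp334 and Tex14, Epcam to Serpinb9 and Blvrb, and Cd24a to Rbms2 and Phkg1. Krt18 came only 1445th among the genes most like Krt8 (r = 0.68), and the replicate numbers ordered the pair differently. Sox9 ran opposite to Krt8 (r = -0.97).

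Genes that work with these markers were read from lists drawn up by role. Over 120 tested genes of the related lists, 23 rose and 13 fell with the block, and 1, Adam17, was called without it. With the block 9.4% of all tested genes rose and 11.2% fell, the shares to set beside each list count below. The lists were written with earlier results of these data known, so their counts are descriptions.

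Among osteopontin receptors and processing genes 4 of 12 rose and 1 fell (median 0.05). Itgav, the αv integrin chain that binds osteopontin, rose by 0.71 and was at 342 ± 59.2 CPM with TNF and 207 ± 33.0 in Control (SD, n = 3 each). Of the β chains that can pair with it, only those called are given here, and they diverged. Itgb6 rose by 1.33 from a low level (5.75 ± 3.79 CPM with TNF and 1.40 ± 0.84 in Control). Itgb5 fell by 0.15, a call lost without replicate 2 (adjusted p 0.0658, limma). Cd44, a further receptor of osteopontin and itself a progenitor marker, rose by 0.91, at 26.7 ± 6.89 CPM with TNF and 14.2 ± 5.73 in Control. Fam20c, the kinase that phosphorylates osteopontin, rose by 0.21, a call lost without replicate 2 (adjusted p 0.0649, limma) and when all genes with a read were tested (0.0558).

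Of 15 tested partners and proteases of Epcam 7 rose and 1 fell (median 0.19). Adam17, the protease that releases the outer part of Epcam, was at 72.9, 74.0 and 76.7 CPM in TNF 1, 2 and 3, against 48.2, 51.3 and 52.7 CPM in Control 1, 2 and 3. All TNF libraries lay above all Control libraries, as in 6.59% of tested genes. Adam17 rose by 0.55 with an adjusted p of 6.52e-07 with the block and 0.0273 without it (limma). The call without the block was lost on leaving out any 1 of the 6 libraries (adjusted p 0.0775 to 0.135, limma). Cldn1, a tight junction claudin, fell by 0.40, at 44.2 ± 5.33 CPM with TNF and 58.7 ± 3.51 in Control. St14, which encodes the protease matriptase, rose by 0.46 with the block but was lower in TNF 1 than in Control 1 and was lost in 4 of 11 alternative fits with the block.

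The lists on the factors that drive Sox9 in ducts were divided. Of 28 tested YAP and TEAD factors and targets 6 rose and 2 fell (median -0.01). Cyr61, a secreted matrix protein and a classic YAP target, rose by 0.98 to 372 ± 82.1 CPM with TNF, against 186 ± 19.0 in Control, while the related target Ctgf fell by 0.24 (133 ± 66.0 CPM with TNF and 158 ± 78.9 in Control). Amotl2, which binds YAP, fell by 0.30; Tead1, its DNA-binding partner, rose by 0.25 and the coagulation gene F3 by 0.36. Of 23 tested Notch pathway genes 1 rose and 1 fell (median -0.01): Rbpj by 0.31 (20.0 ± 1.29 CPM with TNF and 15.9 ± 0.097 in Control) and the receptor gene Notch1 by -0.26 (37.2 ± 0.79 CPM with TNF and 44.9 ± 5.25 in Control), both lost without replicate 2 (adjusted p 0.0786 and 0.0615, limma).

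Among other keratins 42 were found in the table, 24 had no read, and 4 were tested. Krt23 rose by 0.77, at 7.97 ± 3.86 CPM with TNF and 4.08 ± 1.32 in Control, and Krt5, a basal cell keratin, rose by 0.37, a call lost without replicate 2 (adjusted p 0.175, limma) and when all genes with a read were tested (0.107). Of 22 tested filament linkers and desmosome genes 2 rose and 6 fell (median -0.04). Sqstm1, the p62 adaptor found with keratins in Mallory bodies, rose by 0.52 (4152 ± 1321 CPM with TNF and 2892 ± 890 in Control), and the desmosomal Pkp2 rose by 0.11, a call lost without replicate 2 or 3 and when all genes with a read were tested (adjusted p 0.0851, limma). The plakins Ppl and Eppk1 fell by 0.38 and 0.36, and Vim, the mesenchymal filament vimentin, fell by 0.39, at 155 ± 17.5 CPM with TNF and 203 ± 9.74 in Control.

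Of 21 tested further biliary and progenitor genes 3 rose and 2 fell (median 0.08). Besides Cd44, the growth factor receptor gene Fgfr2 rose by 0.68 (7.29 ± 1.79 CPM with TNF and 4.10 ± 0.58 in Control; lost when all genes with a read were tested). Onecut1, a transcription factor shared by hepatocytes and duct cells, fell by 0.81, at 3.52 ± 0.54 CPM with TNF and 7.10 ± 2.29 in Control. The bile acid transporter gene Slc10a2 fell by 0.26, a call lost without replicate 2 or 3 and when all genes with a read were tested (adjusted p 0.0703, limma).

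**Figure D5:**
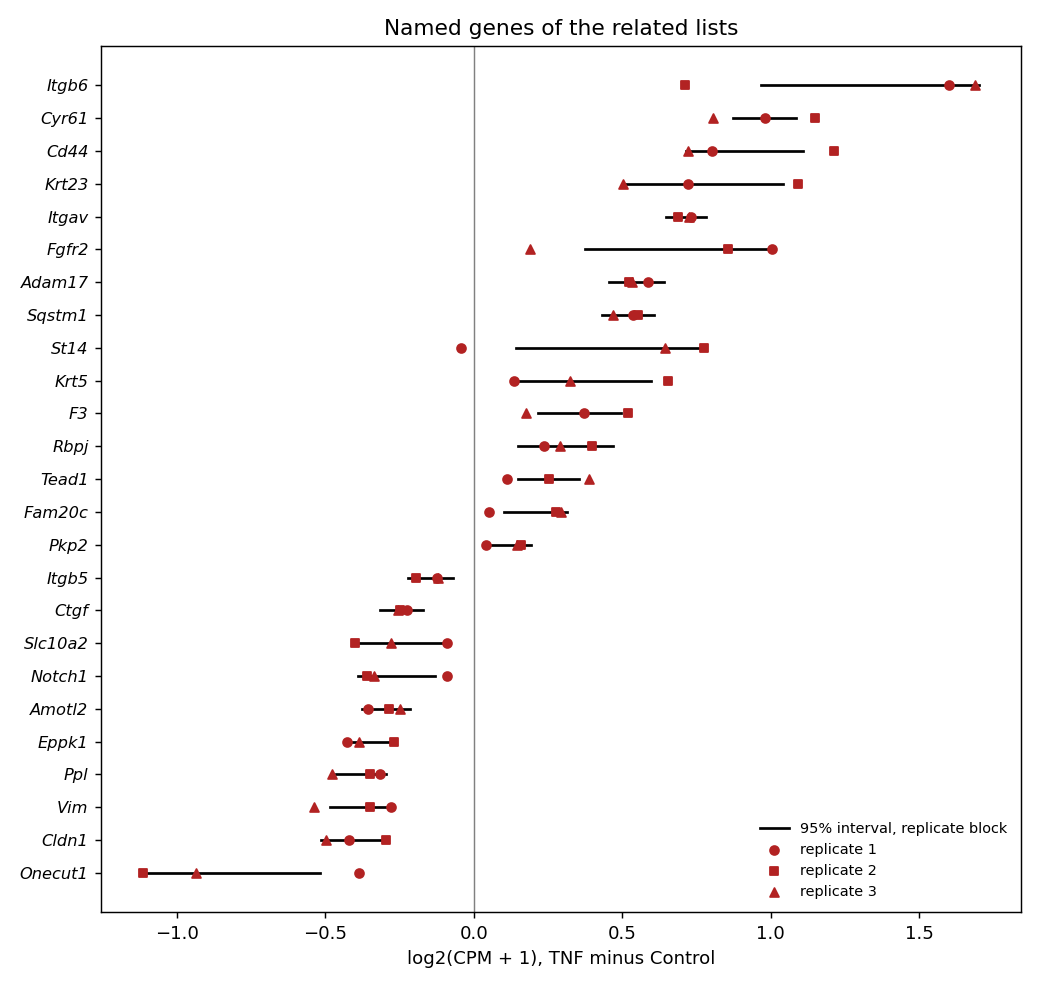
Rows are the genes of the related lists named in the text, ordered by change; red symbols give log2(CPM + 1), TNF minus Control, of each same-numbered pair (x axis) and black lines the 95% interval of limma with the replicate block. Itgb6, Cyr61, Cd44, Krt23 and Itgav lie farthest to the right and Onecut1 farthest to the left, and St14 has 1 pair left of 0.

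Markers of the cells that could be present were summed beside these results. The hepatocyte markers summed to 30414, 45866 and 46657 CPM in TNF 1, 2 and 3, against 32833, 53168 and 51316 CPM in Control 1, 2 and 3, lower with TNF in all 3 pairs. They were led by Alb, at 33298 ± 8552 CPM with TNF and 34932 ± 9946 in Control (adjusted p 0.678, limma with the block). Of the 9 tested hepatocyte markers 6 fell and none rose in limma with the block, where 11.2% of all tested genes fell. Of 15 markers of cholangiocytes, the cells that line bile ducts, that are not among the 9 genes, 8 were tested and 2 fell. These were Slc10a2 and Onecut1, the same 2 genes that fell among the further biliary and progenitor genes, so they add no second result. The call of Slc10a2 was lost in some fits, as given there. Anxa13 had 3 reads in all. The sum of the 15 markers was 135 to 158 CPM in TNF libraries and 150 to 172 CPM in Control libraries. Most of it was Slc4a2 (93.5 ± 5.61 CPM with TNF and 93.5 ± 1.98 in Control), which is not confined to ducts. In bulk RNA, fewer cells of a type and less RNA per cell cannot be told apart.

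Macrophage markers summed to 147 to 234 CPM in TNF libraries and 145 to 233 CPM in Control libraries. Only 1 of these 18 markers had enough reads to be tested, so the sum says little about the rest of them. Stellate markers summed to 21.2 to 47.9 CPM in TNF libraries and 19.9 to 70.4 CPM in Control libraries, and lymphocyte and neutrophil markers to 0.144 to 0.444 CPM in TNF libraries and 0.207 to 0.829 CPM in Control libraries. The endothelial and macrophage sums were highest in replicate 3 of both groups, where Cd24a was lowest, and the hepatocyte and stellate sums were lowest in replicate 1 of both groups, where Cd24a was highest. The endothelial sum was higher with TNF in all 3 same-numbered pairs, at 150.3, 148 and 239 CPM in TNF 1, 2 and 3, against 129.5, 143 and 230.5 CPM in Control 1, 2 and 3. The endothelial genes did not rise as a group. Of the 15 tested, 2 rose and 1 fell in limma with the block, with a median change of -0.055. Of all tested genes 9.4% rose and 11.2% fell. The part of these marker levels in the differences between groups and between replicate numbers was not tested.

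The authors' deposited table, whose model is not given in the sources used here, listed 15.2% of its 19764 genes at an adjusted p under 0.05. Among the 9 genes these were Sox9 (log2 fold change 0.61, adjusted p 1.24e-11), Krt8 (-0.21, adjusted p 1.04e-05), Krt18 (-0.19, adjusted p 9.80e-05) and Pkhd1 (-0.34, adjusted p 0.00134). For Krt7 the authors' deposited table gave a log2 fold change of 1.75 with an adjusted p of 0.564, a value that rests on the single read in TNF 1.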

How the data were processed

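PolyA RNA of 6 libraries (3 TNF, 3 Control) was sequenced in pairs of reads; groups and replicate numbers come from the sample titles. Reads were aligned with STAR 2.6.1a to mm10 (per the submitters' processing notes). How reads were assigned to genes, and whether by strand, is not given in the sources used here. Deposited by the authors were log2 values per gene and library (log2 CPM with a prior count), and, from a model of their own, each gene's log2 fold change with a score (likelihood ratio), p-value and its adjusted form, with gene and counted lengths per the file headers. Coordinates are those of the table, counted from base 1.

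The shared floor of the deposited log2 values was subtracted on the linear scale, after which 100.0% of 118584 values were whole multiples of 1 step per library (relative tolerance 1e-06), so whole reads were recovered and the authors' scaling was kept. A gene was tested if at least 3 libraries had 10 reads of it at median depth and all libraries together had 15. Limma 3.58.1 in R 4.3.3 was run on log2(CPM + 1) of the 12293 genes left, with a trended prior and no term but the group; tests were two-sided, and p-values were adjusted over all of them by Benjamini and Hochberg's method. A further fit, planned as an alternative to it, added the replicate number as a block. Deviations from the group means correlated at 0.78, 0.79 and 0.79 between same-numbered libraries of the 2 groups, so the numbers were taken to pair the samples. Between others the values were -0.47 to -0.34. These add no separate evidence, since deviations from a group mean cancel out within the group. The numbers stand in the titles, without mention of a common day or animal.

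The 9 genes and the lists were chosen with earlier results of these data known. Named genes of the lists are those past 0.05 with the block or, in lists with over 6 of these, the 3 with the largest changes in each direction. Alternatives were limma-voom on the recovered reads, pseudocounts of 0.1 and 0.5, the deposited values, no filter (all genes with a read), 1 CPM in 3 libraries, library totals, median-of-ratios scaling and left-out libraries, each without and with the block. With a pair left out, the blocked fit has little spread of a gene's own to measure. Calls kept or lost there rest mostly on the variance shared across genes. Results on some genes are not reported here.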

Additional observations from a re-analysis of the deposited data

How the results depend on the processing

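With the replicate block the count of the 9 genes called was 4 in place of 0, and that of all genes 2530 in place of 53. It was 4 with limma-voom, both pseudocounts, the deposited log2 values, the 1 CPM filter and both other scalings as well, each with the block, and 2 with the block and no filter. Leaving out a pair gave 3 to 4 with the block, and leaving out a library without the block gave 0 throughout. Counts over all genes with the block were 2520 (limma-voom), 2497 (pseudocount 0.1), 2520 (pseudocount 0.5), 2496 (deposited values), 1743 (no filter), 2516 (1 CPM), 2492 (library totals) and 2572 (median-of-ratios), and 1781, 2192 and 2288 without pair 2, 3 and 1. Without the block they were 31 with no filter and 9 to 30 without a library. Over the related lists the block called 36 genes in place of 1: 36 with limma-voom, both pseudocounts, the deposited values, the 1 CPM filter and library totals, 26 with no filter, 37 with median-of-ratios, and 26 to 37 without a pair. Unblocked counts there were 2 with library totals and 0 without any library. The cause of these differences in counts was not tested.

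Median-of-ratios scaling moved the median change of all tested genes by 0.010 and library totals moved it by 0.0067 (log2), and no direction turned under either among the 33 genes followed. Directions turned in 10 alternative values, all unblocked and with 1 library left out: the log2 changes without a library ranged between -0.75 and 0.52 for Spp1, -0.54 and 0.36 for Cd24a, -0.5037 and 0.0013 for Slc10a2, -0.1051 and 0.7057 for Krt5, -0.0073 and 0.2161 for Pkp2, and -0.62 and 0.1258 for Ctgf. Epcam was not tested at 1 CPM in 3 libraries. Of the named list genes 16 kept their call in each of 11 alternatives with the block. Depth limits Krt7, Krt19 and Epcam most.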

Other observations

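Several duct genes lay under the read minimum. Ehf, an epithelial transcription factor, had 26 reads and averaged 0.310 CPM with TNF and 0.113 CPM in Control. Ggt1, a γ-glutamyltransferase of duct and fetal liver cells, had 41 reads and averaged 0.231 CPM with TNF and 0.436 CPM in Control. Its groups did not overlap, a pattern of 6.66% of tested genes, and the share among genes with so few reads was not worked out. The chloride channel gene Cftr (0.278 CPM with TNF and 0.311 CPM in Control), with 36 reads, and the secretin receptor gene Sctr (0.293 CPM with TNF and 0.254 CPM in Control), with 33 reads, were as low. None of these was tested.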
